A study of Mus musculus with 6 samples.

Results

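The genes described here are 9 enzymes of ketone body use and of branched-chain amino acid breakdown: Bdh1, Oxct1, Acat1, Bcat1, Bcat2, Bckdha, Bckdhb, Dbt and Bckdk. They were taken by symbol from a table of 57180 Ensembl gene identifiers, and all 9 were found and passed the filter on low values (at least 1 TPM in at least 3 of 6 libraries), as did 11753 genes in all. TPM is a gene's length-corrected share of a library's transcripts, scaled to a fixed total. The members were selected on their symbols with the log2 differences between Visomitin and control in these same libraries known, so those differences are given as a description without a test.

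RNA was sequenced from mouse wild-type bone marrow-derived macrophages, primary precursors of osteoclasts, the multinucleated cells that resorb bone, after 5 days in osteoclast-inducing culture. Visomitin, also called SkQ1, is a mitochondria-directed antioxidant. One group of 3 libraries received it (Visomitin 1 to 3) and the other group of 3 did not (control 1 to 3), with all else in the labels shared. The sources used here do not give the dose, the age of the mice, the inducing factors or whether libraries came from separate mice or cultures. A p-value therefore reflects the variation among these 6 libraries alone, and that variation may be technical. Sequencing depth is unknown because TPM keep none.

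Ketone bodies are small fuels made mainly in the liver and burned in the mitochondria of other tissues. BDH1 oxidises 3-hydroxybutyrate to acetoacetate, OXCT1 moves coenzyme A onto acetoacetate, and ACAT1 splits the product into acetyl-CoA for the tricarboxylic acid cycle. Leucine, isoleucine and valine lose their amino group to the transaminases BCAT1, in the cytosol, or BCAT2, in mitochondria. The resulting keto acids are then committed to breakdown by the branched-chain keto acid dehydrogenase complex, which the kinase BCKDK switches off. The routes meet, since ACAT1 also acts on isoleucine and leucine breakdown yields acetoacetate.

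The labelled cell type matched its markers. The summed level of 10 macrophage markers was 36400 to 40700 TPM in control and 42100 to 47300 TPM with Visomitin. It was led by Lyz2, whose highest value was 42100 TPM, so the sum does not weigh the 10 evenly. Of the 9 that could be tested 2 rose, and the others were not called. All 12 osteoclast markers were present, and all 12 fell (limma, adjusted p under 0.05), with a summed level of 11300 to 12200 TPM in control and 2980 to 3590 TPM with Visomitin. Markers of B cells, T and natural killer cells, erythroid cells, mast cells or basophils and adipocytes summed to at most 1.08 TPM in any library. Dendritic cell markers summed to 1.26 to 1.95 TPM, neutrophil markers to 8.82 to 19.5 TPM and endothelial markers to 10.1 to 17.5 TPM. Megakaryocyte markers summed to 334 to 484 TPM, led by Pf4, which macrophages also express. None of the tested markers of these 4 types was called between groups. Of 8 stromal and osteoblast markers, Bglap was listed at 0 throughout and the sum was 108 to 317 TPM in control and 72.9 to 161 TPM with Visomitin. Libraries correlated at 0.979 to 0.9866 within groups and at 0.9614 to 0.9764 between them (Pearson, log2 values across genes, which are not independent replicates).

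The ketone body genes were lower with Visomitin, and Bdh1 by far the most. In all 3 each Visomitin library lay below each control library, as in 18.4% of all tested genes. Of the 6 branched-chain amino acid genes, 4 had a value above 0 and 2 below, and 5 had overlapping ranges. Counted over the 9 members, 4 had groups without overlap in either direction, against 30.4% of all tested genes. In the fit over all genes (limma on log2(TPM + 1), Benjamini-Hochberg adjustment over 11753 genes, threshold 0.05) 1 of the 9 members was called, Bdh1, where 7.1% of all tested genes were called, 5.03% lower and 2.08% higher. Because the genes were chosen with this contrast known, nothing is read from these counts, and the call of Bdh1 is not used as a test of it.

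**Figure D1:**
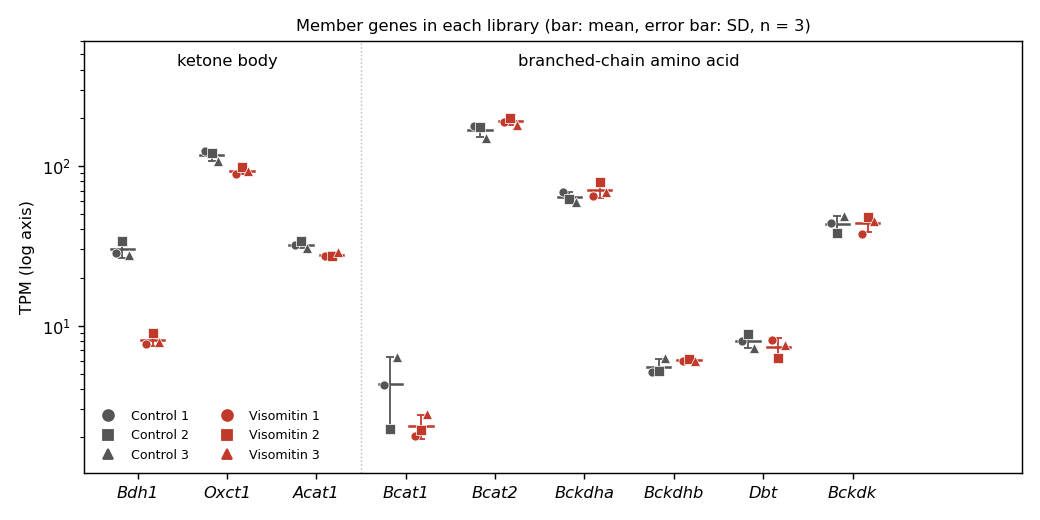
TPM of the 9 member genes (log axis) in each of the 6 libraries, with 1 symbol per library number, a horizontal bar for the group mean and an error bar for the SD (n = 3). Bdh1 stands apart with 27.64 to 33.93 TPM in control and 7.63 to 8.97 TPM with Visomitin, while most branched-chain amino acid genes have overlapping groups.

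Bdh1 (ENSMUSG00000046598), the mitochondrial 3-hydroxybutyrate dehydrogenase, was at 28.57, 33.93 and 27.64 TPM in control 1 to 3 and at 7.63, 8.97 and 7.96 TPM in Visomitin 1 to 3. Every Visomitin library was far below every control library. The means were 30.0 ± 3.40 and 8.19 ± 0.698 TPM (SD, n = 3), so that 27.2% of the control level was left. The log2(TPM + 1) difference, Visomitin minus control, was -1.75 (SE 0.12), a 3.37-fold lower value on that scale, which understates changes of low genes.

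The sequence before the start of Bdh1 is shown because this gene differed most, and that of Oxct1 because it is the next step of the same route and differed little. RefSeq (GRCm38.p6) gives Bdh1 a pair of start sites, both on the plus strand, with the 250 bases before them at chr16:31422047-31422296 and chr16:31428503-31428752, and Oxct1 a single one at chr15:4026178-4026427, also plus. The sources used here do not name the build of the deposited table. Which start the cells used was not analysed here. Capitals mark the letters TGGAAA, an NFAT core.
Bdh1, first start: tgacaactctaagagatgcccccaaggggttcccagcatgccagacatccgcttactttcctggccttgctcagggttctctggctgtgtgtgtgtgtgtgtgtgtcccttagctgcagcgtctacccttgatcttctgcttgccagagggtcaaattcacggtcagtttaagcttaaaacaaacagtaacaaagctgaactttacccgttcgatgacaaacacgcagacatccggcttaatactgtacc
Bdh1, second start: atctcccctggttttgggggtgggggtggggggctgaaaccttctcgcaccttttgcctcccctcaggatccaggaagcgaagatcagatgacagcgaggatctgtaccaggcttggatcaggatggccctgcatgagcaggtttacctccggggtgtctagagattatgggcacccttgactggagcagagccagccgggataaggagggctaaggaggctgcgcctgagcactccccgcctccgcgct
Oxct1: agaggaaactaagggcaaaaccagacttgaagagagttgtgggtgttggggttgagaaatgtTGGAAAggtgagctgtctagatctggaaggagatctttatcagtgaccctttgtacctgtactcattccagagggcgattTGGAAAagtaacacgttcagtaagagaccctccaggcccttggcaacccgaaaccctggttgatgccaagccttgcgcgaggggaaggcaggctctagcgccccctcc

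Motif letters were searched on both strands of these 250 bases, for factors of osteoclast formation, of mitochondrial genes and of the study's title. They were TTCNNNGAA (STAT), AAGGTCA (ERR), TCANGTGA (MITF), TGATGNAA (ATF4), TGANTCA (AP-1), GAGGAAG (PU.1) and TGGAAA (NFAT). Of 32851 RefSeq windows of the same length, 7.02% held the STAT letters, 4.08% ERR, 3.45% MITF, 3.45% ATF4, 6.75% AP-1, 10.6% PU.1 and 18.6% NFAT. Neither Bdh1 window held any of them, and the Oxct1 window held the NFAT letters at positions -188 to -183 and -108 to -103 from the start. Windows were found for 7 of the 9 members, 11 windows in all, and none held the STAT, ERR, MITF or ATF4 letters. The AP-1 letters occurred before Bcat1 (-24 to -18), the PU.1 letters before Bckdhb (-35 to -29), and the NFAT letters also before Bcat2 and before the second start of Bckdhb. No matches in these windows overlapped. A match is a description of letters, not a binding site.

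Oxct1 (ENSMUSG00000022186), the succinyl-CoA transferase that commits ketone bodies to oxidation, was the second most abundant member. It was at 123.92, 120.13 and 106.45 TPM in control 1 to 3 and at 88.79, 97.97 and 92.45 TPM with Visomitin. The groups did not overlap, but the gap between control 3 and Visomitin 2 was small beside the spread within control. The mean was 117 ± 9.19 TPM in control and 93.1 ± 4.62 TPM with Visomitin, 79.7% of control (log2 difference -0.32, SE 0.09).

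Acat1 (ENSMUSG00000032047), the mitochondrial acetoacetyl-CoA thiolase, was measured at 31.77, 33.87 and 30.71 TPM in control and at 27.21, 27.14 and 28.90 TPM with Visomitin. The groups again did not overlap, and the Visomitin mean of 27.8 ± 0.997 TPM was 86.4% of the control mean of 32.1 ± 1.61 TPM (log2 difference -0.20, SE 0.09). The differences of Oxct1 and Acat1 had SE ranges that overlapped. As a ratio within each library, Bdh1 was 23.1, 28.2 and 26.0% of Oxct1 in control and 8.59, 9.16 and 8.61% with Visomitin, with no overlap. Acat1 was 25.6 to 28.8% of Oxct1 in control and 27.7 to 31.3% with Visomitin, and these ranges overlapped.

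The fall of the osteoclast marker sum was about as large as the difference in Bdh1. The sum was led by Acp5, whose highest value was 4450 TPM, so it does not weigh the 12 markers evenly. The control mean of the marker sum, 11900 ± 522 TPM, was 3.58 times the Visomitin mean of 3320 ± 310 TPM, and that of Bdh1 was 3.67 times. Per 1000 TPM of the marker sum, Bdh1 stood at 2.53, 2.77 and 2.28 TPM in control and at 2.56, 2.50 and 2.36 TPM with Visomitin, so that the groups overlapped. Oxct1 and Acat1 did not keep that proportion, and neither did any other member. A gene that falls less than the marker sum necessarily rises in this ratio. Oxct1 was at 8.77 to 11.0 TPM per 1000 in control and 27.3 to 29.8 with Visomitin, and Acat1 at 2.53 to 2.81 and 7.55 to 9.12. The part of the osteoclast share in these differences was not tested, and in bulk RNA fewer osteoclasts and less RNA per osteoclast cannot be told apart.

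**Figure D2:**
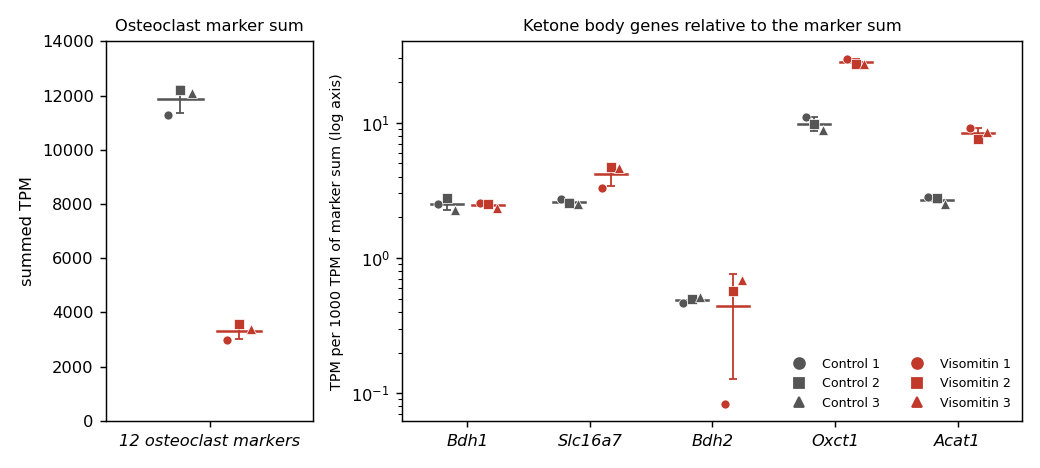
Left, the summed TPM of 12 osteoclast markers in each library. Right, TPM of 5 ketone body genes per 1000 TPM of that sum (log axis), with 1 symbol per library number, the mean as a bar and the SD as an error bar (n = 3). Bdh1 lies at 2.28 to 2.77 in control and 2.36 to 2.56 with Visomitin. The ratios of Oxct1 and Acat1 lie higher with Visomitin, as their TPM fell less than the marker sum.

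Genes with the pattern most like Bdh1 were sought among 8950 tested genes with a symbol and a mean of at least 5 TPM, by the root mean square difference of log2(TPM + 1) values over the 6 libraries, each gene centred on its own mean. The nearest was Slc9b2, a sodium/proton exchanger, at a distance of 0.0662. It averaged 124 ± 11.8 TPM in control and 33.0 ± 3.28 TPM with Visomitin. Next were Rufy4, a RUN and FYVE domain protein (0.0679), and Atp6v0d2, a proton pump subunit of osteoclasts and one of the 12 markers above (0.097). Rufy4 was at 33.9 ± 1.37 and 8.96 ± 0.93 TPM and Atp6v0d2 at 148 ± 11.8 and 43.2 ± 0.754 TPM. Of the motif letters above, the Slc9b2 window held none and the Rufy4 window held those of AP-1, PU.1 and NFAT.

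The branched-chain transaminases differed in level and in spread. Bcat2 (ENSMUSG00000030826), the mitochondrial enzyme, was the most abundant member in both groups. It was at 177.54, 175.25 and 148.44 TPM in control and at 188.90, 198.99 and 180.93 TPM with Visomitin. Each Visomitin library lay above each control library, by a narrow margin, and 11.9% of all tested genes were higher without overlap. The means were 167 ± 16.2 and 190 ± 9.05 TPM (log2 difference 0.19, SE 0.09), and the difference was 0.10 on the log2 scale without control 3.

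Bcat1 (ENSMUSG00000030268), the cytosolic enzyme, was the least abundant member, at 4.25, 2.26 and 6.41 TPM in control and 2.05, 2.23 and 2.80 TPM with Visomitin. Control 2 lay within the Visomitin range, and the control libraries differed among themselves by more than the groups did. The means were 4.31 ± 2.08 and 2.36 ± 0.392 TPM (log2 difference -0.59, SE 0.28), and the difference was -0.90 without control 2 and -0.31 without control 3. Bcat1 made up 1.27 to 4.14% of the summed TPM of both transaminases in control and 1.07 to 1.52% with Visomitin. Bcat2 thus supplied nearly all of the transaminase transcript in every library.

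The genes nearest to Bcat1 in pattern were Crip2, a LIM domain protein (distance 0.077), Nid1, the basement membrane protein nidogen (0.0806), and Rcn1, a calcium-binding protein of the endoplasmic reticulum (0.082). Nid1 was at 9.46, 5.81 and 15.4 TPM in control 1 to 3 and at 5.10, 5.95 and 7.87 TPM in Visomitin 1 to 3. Like Bcat1, it was highest in control 3 and lowest in Visomitin 1, a likeness that its choice by pattern builds in. The summed stromal and osteoblast markers were at 210, 108 and 317 TPM in control and at 72.9, 114 and 161 TPM with Visomitin, also highest in control 3 and lowest in Visomitin 1. None of the 4 tested of these 8 markers passed the test between groups, and their part in the Bcat1 values was not tested.

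**Figure D3:**
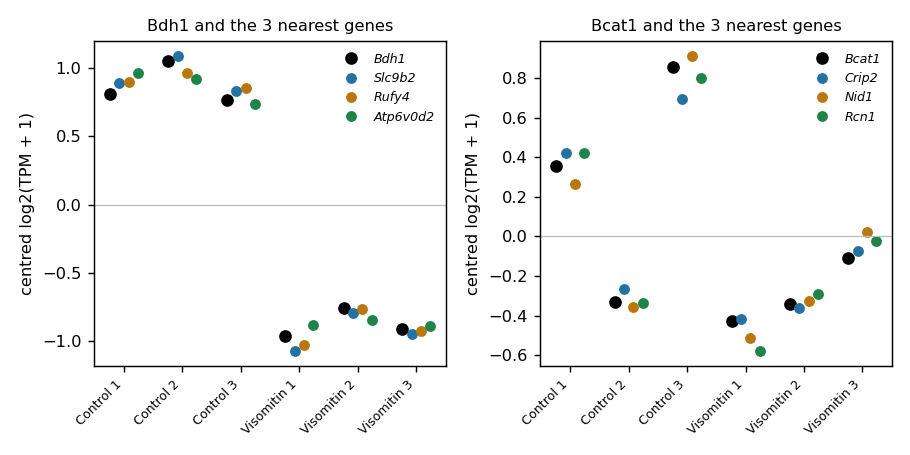
Centred log2(TPM + 1) values of Bdh1 (left) and Bcat1 (right) with the 3 genes nearest in pattern, 1 column of points per library. Bdh1 and its neighbours form separate groups by treatment, while Bcat1 and its neighbours are low in control 2 and high in control 3.

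The 3 member subunits of the dehydrogenase complex and its kinase had overlapping groups. Bckdha (ENSMUSG00000060376), the E1 alpha subunit, was at 68.86, 62.17 and 59.23 TPM in control and 64.49, 79.68 and 68.31 TPM with Visomitin. The groups overlapped, and Visomitin 2 alone lay above all controls (means 63.4 ± 4.94 and 70.8 ± 7.90 TPM, log2 difference 0.15, SE 0.11). Without Visomitin 2 the log2 difference was 0.07. Bckdhb (ENSMUSG00000032263), the E1 beta subunit, was at 5.12, 5.22 and 6.29 TPM in control and 5.98, 6.17 and 6.04 TPM with Visomitin. All Visomitin values lay between control 2 and control 3 (log2 difference 0.11, SE 0.13).

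Dbt (ENSMUSG00000000340), the E2 transacylase core, was at 7.99, 8.92 and 7.24 TPM in control and 8.18, 6.26 and 7.61 TPM with Visomitin, with overlapping groups (log2 difference -0.12, SE 0.14). It was -0.02 without Visomitin 2, the lowest library. Bckdk (ENSMUSG00000030802), the kinase that inactivates the complex, was at 43.92, 38.26 and 48.23 TPM in control and 37.62, 47.73 and 45.41 TPM with Visomitin. Its means were nearly equal, 43.5 ± 5.00 and 43.6 ± 5.30 TPM (log2 difference 0.003, SE 0.12), and the sign changed when single libraries were left out (-0.08 to 0.10 on the log2 scale).

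Within the complex the TPM of the genes differed widely. TPM compared between genes depend on the annotated lengths, and the annotation behind these values is not stated. Bckdhb was 7.44 to 10.6% of Bckdha in control and 7.74 to 9.27% with Visomitin. Their proteins, which pair in one enzyme, were not measured here. Dbt was 11.6 to 14.3% of Bckdha in control and 7.86 to 12.7% with Visomitin. Bckdk was 61.5 to 81.4% of Bckdha in control and 58.3 to 66.5% with Visomitin. All 3 ratios overlapped between the groups.

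Ordered by mean TPM in control, the members ran from Bcat2 through Oxct1, Bckdha, Bckdk, Acat1, Bdh1, Dbt and Bckdhb to Bcat1. In control the neighbours Acat1 and Bdh1 overlapped in range, as did Bckdhb and Bcat1, and the other neighbours did not. The order was the same with Visomitin, where Bdh1, at 8.19 ± 0.698 TPM, overlapped with Dbt, at 7.35 ± 0.986 TPM, and no longer with Acat1.

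Other genes of ketone body metabolism, which are not among the 9, were read from the same fit. Their list was written with earlier results of these data known, that of Slc16a7 among them, so its counts are not independent evidence. Of 12 listed, 8 passed the filter. Of these, 2 fell, 0 rose and 6 did not pass, where 5.03% of all tested genes fell and 2.08% rose (median log2 difference -0.35, against -0.03 over all tested genes). Slc16a7, for the monocarboxylate transporter MCT2, which carries ketone bodies, lactate and pyruvate, was at 31.00, 31.49 and 30.24 TPM in control and 9.86, 16.80 and 15.70 TPM with Visomitin. The groups were far apart (log2 difference -1.11, SE 0.18, limma adjusted p = 0.010). Its call was lost with no filter on low values (limma adjusted p = 0.056). Per 1000 TPM of the osteoclast marker sum it was at 2.49 to 2.75 in control and 3.31 to 4.67 with Visomitin.

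Bdh2, for a cytosolic dehydrogenase named after the same substrate, was at 5.29, 6.08 and 6.26 TPM in control and 0.25, 2.04 and 2.31 TPM with Visomitin. It fell (log2 difference -1.56, SE 0.34, limma adjusted p = 0.032), to a very low value in Visomitin 1. The call was lost without control 1, control 2 or control 3 (limma adjusted p = 0.091, 0.071 and 0.099), with a pseudocount of 0.1 (0.077) and without any filter on low values (0.14). The log2 difference itself was -1.62, -1.54 and -1.52 without control 1, 2 and 3, -1.11 without Visomitin 1, -2.29 with a pseudocount of 0.1 and -0.75 with a pseudocount of 5. The osteoclast marker sum fell beside both genes, and its part was not tested.

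The other genes of the list were low or did not pass. Oxct2a and Oxct2b, the testis forms of the transferase, were listed at 0 in all libraries, and Acat3 reached at most 0.16 TPM. Aacs, the cytosolic acetoacetyl-CoA synthetase, did not pass, at 20.8 ± 7.13 and 15.5 ± 1.67 TPM (-0.36, 95% interval -0.85 to 0.12). Slc16a6, a monocarboxylate transporter family member named after its values were seen, was at 11.1 ± 0.890 and 8.26 ± 0.571 TPM (limma adjusted p = 0.089). It passed with array weights (limma adjusted p = 0.03) and under no other alternative.

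Of 19 other genes of branched-chain amino acid degradation all were tested, and 0 rose and 0 fell (limma, adjusted p under 0.05), where 7.1% of all tested genes were called. At an unadjusted p under 0.05 there were 2, Dld and Hsd17b10, against 2862 of all 11753 tested genes. Their median log2 difference was 0.06, with 13 above 0 and 6 below, and single genes ran from -0.51 to 0.26. Hsd17b10, a dehydrogenase of isoleucine breakdown, averaged 163 ± 12.6 TPM in control and 140 ± 10.0 TPM with Visomitin (-0.22, 95% interval -0.43 to -0.01, limma adjusted p = 0.18). Mcee, the methylmalonyl-CoA epimerase, was at 72.9 ± 8.09 and 86.2 ± 26.4 TPM (0.20, 95% interval -0.23 to 0.64), and its sign changed without Visomitin 1 (-0.03). The leucine enzymes Mccc1 (0.06, 95% interval -0.17 to 0.29) and Ivd (0.09, 95% interval -0.21 to 0.40) had intervals on both sides of 0.

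Dld, named after its values were seen, is the E3 subunit that the branched-chain complex shares with pyruvate and 2-oxoglutarate dehydrogenase. It was at 39.63, 36.82 and 30.44 TPM in control and 27.85, 23.36 and 22.70 TPM with Visomitin, without overlap. The difference just missed the threshold (log2 difference -0.51, SE 0.13, limma adjusted p = 0.051). It passed with a mean filter of 5 TPM (0.043), with array weights (0.0032), with the library number as a block (0.023), without control 3 (0.048) and without Visomitin 1 (0.038). Under all other alternatives Dld did not pass, with limma adjusted p from 0.052 (pseudocount of 0.1 or 5) to 0.16 (without control 1 or Visomitin 2). These included no filter on low values (0.13), median-ratio scaling (0.09) and quantile normalization (0.1). Among the 4 subunit genes of the complex, Dld had the lowest difference, followed by Dbt at -0.12.

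Of 6 listed carriers of branched-chain amino acids 5 were tested, and 0 rose and 0 fell (limma, adjusted p under 0.05). With 7.1% of all tested genes called, a list this short says little. At an unadjusted p under 0.05 there were 2, Slc7a5 and Slc43a2 (median log2 difference of the list 0.15), and Slc43a1 was below the filter. Slc43a2, a facilitated leucine transporter, averaged 213 ± 14.3 TPM in control and 264 ± 29.9 TPM with Visomitin, without overlap (0.31, 95% interval 0.08 to 0.53, limma adjusted p = 0.11). It passed under quantile normalization (0.048) and with array weights (0.011). It did not pass in the other alternatives (limma adjusted p up to 0.30, without Visomitin 2). Slc3a2, the heavy chain of the exchanger that imports leucine, was at 169 ± 18.5 and 189 ± 30.7 TPM (0.15, 95% interval -0.15 to 0.45). Slc7a5, its light chain, named after its values were seen, was at 12.4 ± 3.76 and 18.6 ± 4.34 TPM (0.56, 95% interval 0.05 to 1.08, limma adjusted p = 0.17).

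**Figure D4:**
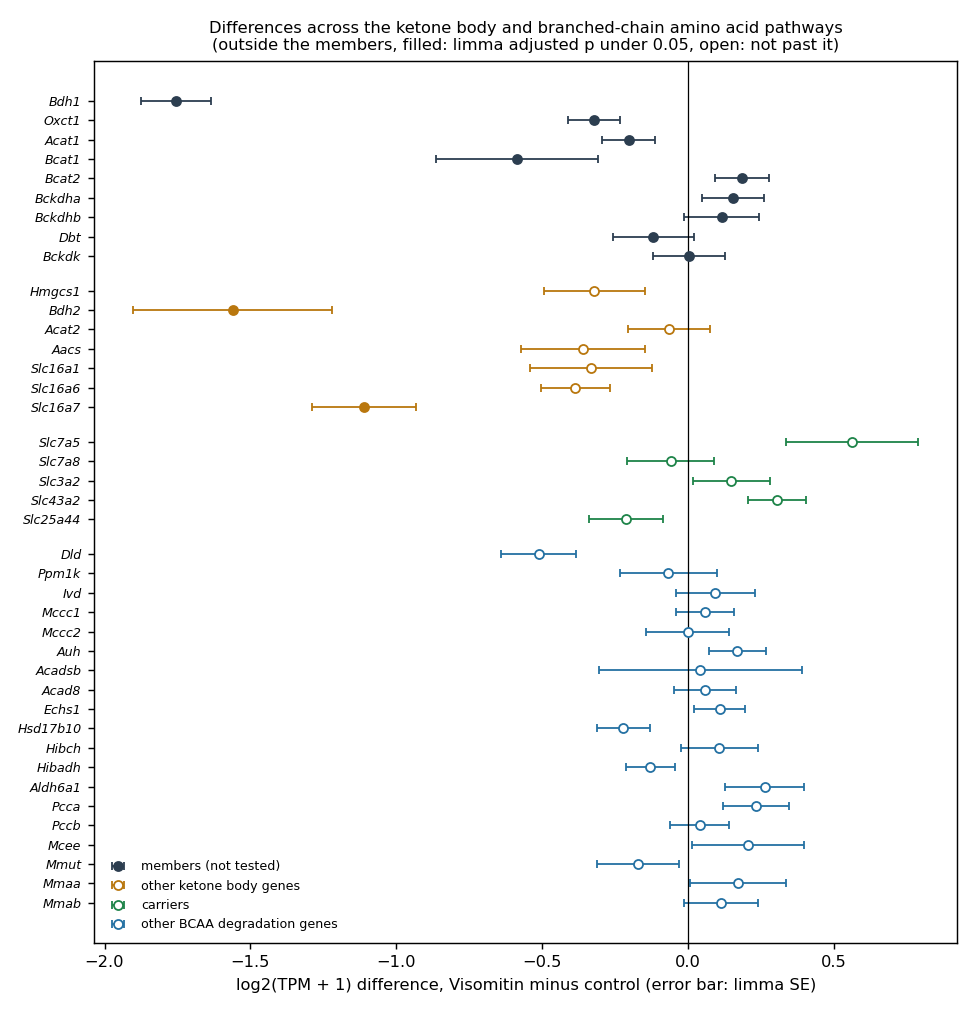
Difference in log2(TPM + 1), Visomitin minus control, for the members and tested genes of the 3 other lists, all but 1, with limma standard errors. Outside the members, filled points passed the test (Bdh2 and Slc16a7) and open points did not. Most ketone body genes lie left of 0, and the branched-chain amino acid genes lie on both sides of it, from Bcat1 at -0.59 to Slc7a5 at 0.56.

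The differences of the members moved little with most settings, but changes of filter, trend or block cannot move a log2 difference in this design. Those settings count among the 15 and return the values given above by construction. Bdh1 lay between -1.86 (pseudocount of 0.1) and -1.41 (pseudocount of 5) on the log2 scale in 15 alternatives, Oxct1 between -0.39 and -0.28 and Acat1 between -0.24 and -0.15, all below 0. Bcat2, Bckdha and Bckdhb were above 0 in all 15, at 0.10 to 0.27, 0.07 to 0.26 and 0.07 to 0.20. Dbt was below 0 in all 15, at -0.29 to -0.02. Bcat1, which a mean filter of 5 TPM removes, ran from -0.90 to -0.31 in the other 14. Bckdk was above 0 in 12 and below 0 in 3.

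**Figure D5:**
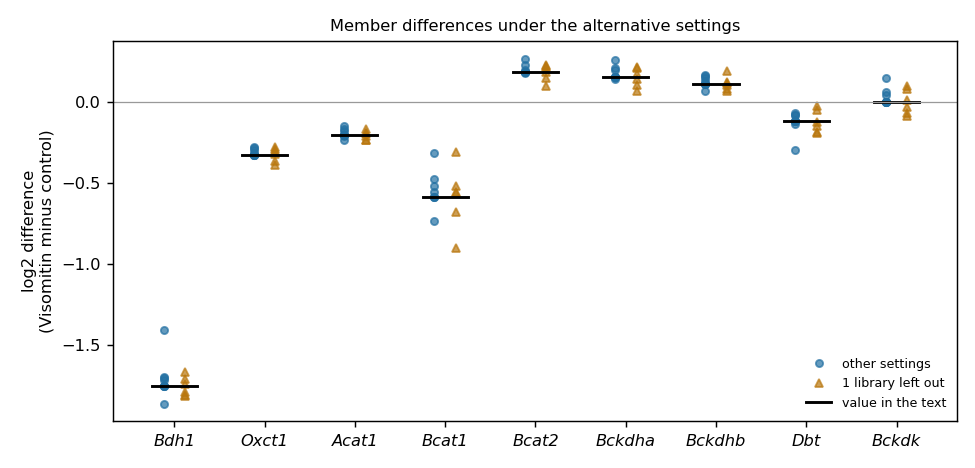
Log2 difference, Visomitin minus control, of each member under every alternative setting (circles), with 1 library left out (triangles) and as given in the text (bar). Bdh1 is far below 0 throughout, Bcat1 spreads widely with single libraries left out, and Bckdk lies on both sides of 0.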

How the data were processed

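Expression was measured by RNA-seq in 6 libraries. The authors deposited TPM per gene, computed within each library so that every library has the same total; the submitters' processing notes name fastp, HISAT2 and StringTie, without versions, and no genome build or annotation is stated there. Per the labels' protocols, libraries were stranded mRNA preparations. Values were used without scaling between libraries. Of 57180 identifiers, 51884 were matched to a symbol in a reference table, and Mmut was matched through its older symbol. Genes with at least 1 TPM in 3 of 6 libraries were fitted as log2(TPM + 1), pseudocount 1, with limma 3.58.1 (R 4.3.3, trend, group only, two-sided). The fit was also run on simulated data, where the changed genes had a mean of at least 5 TPM. That run does not cover lower genes, or differences as small as those of most members. P-values were adjusted over all 11753 tested genes at 0.05.

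The members and all lists were chosen with earlier results of these data known. Named were all members and, of each other list, the genes that passed (at most 8) and the 2 most abundant that did not. For the 2 members with the largest difference, the 3 nearest genes were also named. Dld, Ivd, Mccc1, Slc7a5 and Slc16a6 were named outside this rule, as were some listed genes below the filter. Promoter sequences are RefSeq's (GRCm38.p6); motifs were chosen after the values were seen. The 15 alternatives changed the pseudocount, filter, scaling, trend, weights, block or libraries. A few genes of the lists count in their totals but are not reported here by name.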

Additional observations from a re-analysis of the deposited data

How the results depend on the processing

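TPM keep no depth, so low genes such as Bcat1 and Bdh2 have an unknown counting error, and 3 libraries a group limit precision. Over all genes 244 were higher and 591 lower. With no filter on low values the counts were 73 and 308, and with array weights 1263 and 1572. The higher genes numbered 481 after median-ratio scaling, 559 after quantile normalization, where the lower numbered 689 and 651, so that 58.9% and 53.8% of called genes were lower instead of 70.8%; the median difference of all tested genes moved from -0.034 to 0.003 and 0.023. Leaving out 1 library gave 64 (without Visomitin 2) to 420 (without Visomitin 1) higher genes and 244 (without control 1) to 561 (without Visomitin 1) lower genes. The cause of these shifts was not tested, and such fits also have fewer samples.

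With array weights 1572 of all 11753 tested genes were called lower instead of 591, and 1263 higher instead of 244. The array-weight counts below stand beside those totals, and nothing is read from them. Members called lower numbered 3 with array weights instead of 1, and 1 in the other 14 alternatives. Other branched-chain amino acid degradation genes called higher numbered 1 with array weights, and those called lower 2 with array weights, 1 with a mean filter of 5 TPM, 1 with the replicate block and 0 to 1 with 1 library left out, instead of 0. Carrier genes called higher numbered 1 under quantile normalization and with array weights, instead of 0. Other ketone body genes called lower numbered 3 with array weights, where Slc16a6 also passed, instead of 2. They numbered 1 with a pseudocount of 0.1, 0 with no filter, 1 with a mean filter of 5 TPM, which drops Bdh2, and 1 to 2 with 1 library left out.

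The library numbers are not stated to pair libraries. Residual correlations within a number were 0.046, 0.02 and 0.173, and the replicate block gave 308 higher and 799 lower genes.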
